A study of Mus musculus with 87 samples.

Results

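Axon guidance ligands and receptors were taken from the comparison tables by gene symbol, as all names of the semaphorin, plexin, netrin, Unc5, Slit, Robo, ephrin and Eph families and Dcc. The rule found 67 genes among the 26171 symbols of each table: 20 semaphorins, 9 plexins, 4 netrins, Dcc and the Unc5 receptors (5), 3 Slits, 4 Robo receptors, 8 ephrins and 14 Eph receptors. The rule uses gene names only. The study examined Suz12, a core subunit of the Polycomb repressive complex PRC2, and its splicing at exon 4. PolyA RNA was read from mouse embryonic stem cells (ESC, line 129-B13, kept in 20% serum with LIF) and from neuronal precursors (NP), which were made through embryoid bodies with retinoic acid from day 4 and harvested on day 8.

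The ESC groups were wild type (WT, 3 samples), cells in which exon 4 is always included (CSex4, 2), cells with exon 4 deleted (Deltaex4, 2), the full Suz12 knock-out (KO, 3), and the knock-out rescued with the long isoform (KO-L, 2) or the short isoform (KO-S, 2). KO-L3D and KO-S3D (2 samples each) are rescues from the Rosa26 locus whose isoform carries what the labels call the 3D mutation, placed at 196 and so past exon 4. All rescue lines therefore share the Suz12 knock-out. In NP there were 4 WT samples and 2 each of KO, KO-S, KO-L, Deltaex4 and CSex4. The labels do not say how many clones stand for a genotype, or that samples of a group were separate cultures, so p-values measure only the spread between these samples. In bulk RNA, fewer cells of a type and less RNA per cell cannot be told apart.

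Growing axons are steered by secreted and membrane-bound cues. Netrins attract growth cones through Dcc and repel them through Unc5 receptors, Slits repel through Robo receptors, semaphorins act through plexins and their neuropilin partners, and ephrins signal by contact with Eph receptors in both directions. PRC2 trimethylates lysine 27 of histone H3 (H3K27me3), a mark of repressed developmental genes that in stem cells lies mostly over promoters rich in the dinucleotide CG.

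The starts of many of these genes lay in the authors' listed Polycomb regions, and 8 promoters from RefSeq (GRCm38.p6, 250 bases before to 50 after the start, 5′ to 3′ on the gene's strand) are shown because they carry the genes on which the results turn. Every CG dinucleotide, which reads the same on both strands, is in capitals. The first 5 have a start within 2500 bp of a region in both the Suz12 and the H3K27me3 list; they belong to Robo3 (chr9:37433126-37433425, minus strand), Unc5a (chr13:54949161-54949460, plus), Slit2 (chr5:47982905-47983204, plus), Plxnd1 (chr6:115994956-115995255, minus) and Efna5 (chr17:62881268-62881567, minus). Sema3c (chr5:17574566-17574865, plus) has a start in an H3K27me3 region and none of Suz12 nearby. Robo4 (chr9:37401722-37402021, plus) and Sema3e (chr5:14025026-14025325, plus) have neither.
Robo3: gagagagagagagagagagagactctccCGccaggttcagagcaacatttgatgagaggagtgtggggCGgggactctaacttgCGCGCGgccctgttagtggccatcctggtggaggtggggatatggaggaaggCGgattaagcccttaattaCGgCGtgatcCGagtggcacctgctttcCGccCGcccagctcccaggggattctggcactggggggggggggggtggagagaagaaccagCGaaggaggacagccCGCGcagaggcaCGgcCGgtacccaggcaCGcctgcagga
Unc5a: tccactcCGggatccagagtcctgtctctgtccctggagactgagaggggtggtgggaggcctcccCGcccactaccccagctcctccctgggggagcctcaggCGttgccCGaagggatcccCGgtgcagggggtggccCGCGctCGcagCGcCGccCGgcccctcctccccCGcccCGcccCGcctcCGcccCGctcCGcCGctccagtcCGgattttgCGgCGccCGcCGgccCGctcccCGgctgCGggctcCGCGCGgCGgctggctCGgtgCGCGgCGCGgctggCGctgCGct
Slit2: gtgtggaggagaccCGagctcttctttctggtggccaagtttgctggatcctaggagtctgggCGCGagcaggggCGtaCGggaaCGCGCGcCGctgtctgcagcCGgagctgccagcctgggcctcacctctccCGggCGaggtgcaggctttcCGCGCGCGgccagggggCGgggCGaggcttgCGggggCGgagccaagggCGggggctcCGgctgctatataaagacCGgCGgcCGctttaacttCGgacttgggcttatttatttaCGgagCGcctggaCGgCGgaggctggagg
Plxnd1: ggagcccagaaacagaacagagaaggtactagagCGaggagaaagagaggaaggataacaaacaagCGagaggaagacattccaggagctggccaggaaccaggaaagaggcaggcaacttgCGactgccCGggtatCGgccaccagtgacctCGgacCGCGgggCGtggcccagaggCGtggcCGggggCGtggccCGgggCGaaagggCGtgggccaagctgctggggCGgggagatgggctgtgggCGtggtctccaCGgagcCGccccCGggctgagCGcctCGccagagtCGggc
Efna5: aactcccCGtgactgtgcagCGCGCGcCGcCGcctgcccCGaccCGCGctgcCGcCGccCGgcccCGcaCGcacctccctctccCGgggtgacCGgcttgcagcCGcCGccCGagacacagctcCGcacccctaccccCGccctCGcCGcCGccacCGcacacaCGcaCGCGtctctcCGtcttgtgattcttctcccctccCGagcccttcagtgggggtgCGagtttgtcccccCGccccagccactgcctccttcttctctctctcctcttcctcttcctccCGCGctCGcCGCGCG
Sema3c: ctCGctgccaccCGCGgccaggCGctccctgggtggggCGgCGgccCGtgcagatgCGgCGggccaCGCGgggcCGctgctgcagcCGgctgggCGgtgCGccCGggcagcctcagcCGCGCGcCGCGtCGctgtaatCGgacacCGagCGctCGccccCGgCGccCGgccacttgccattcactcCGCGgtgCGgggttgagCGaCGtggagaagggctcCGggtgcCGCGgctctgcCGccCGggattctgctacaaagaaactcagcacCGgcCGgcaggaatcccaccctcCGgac
Robo4: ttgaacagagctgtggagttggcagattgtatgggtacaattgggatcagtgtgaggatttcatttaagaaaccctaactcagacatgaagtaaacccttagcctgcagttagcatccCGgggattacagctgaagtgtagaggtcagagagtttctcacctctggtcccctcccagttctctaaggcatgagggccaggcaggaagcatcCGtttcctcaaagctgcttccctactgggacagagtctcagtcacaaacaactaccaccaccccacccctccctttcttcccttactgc
Sema3e: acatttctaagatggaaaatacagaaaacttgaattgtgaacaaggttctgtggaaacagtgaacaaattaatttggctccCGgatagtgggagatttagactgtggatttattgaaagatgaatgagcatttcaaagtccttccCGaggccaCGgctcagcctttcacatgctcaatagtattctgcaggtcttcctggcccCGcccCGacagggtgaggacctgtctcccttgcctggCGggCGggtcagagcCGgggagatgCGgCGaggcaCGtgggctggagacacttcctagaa
The Sema3c promoter holds 42 CG dinucleotides in its 300 bases, that of Efna5 38, Unc5a 37, Slit2 30, Plxnd1 23 and Robo3 17, against 11 in Sema3e and 2 in Robo4. The Robo3 and Robo4 starts lie on the same chromosome, and the Robo4 start is 30107 bp from the nearest Suz12 region, the region that holds the Robo3 start (chr9:37432079-37435590). Of the 57 guidance genes with a RefSeq promoter, 49 (86%) held 10 or more CG, against 57.4% of the 19502 genes of the comparison tables with such a promoter (45.8% of all 27025 genes with one). The median was 23 CG over the guidance genes, 13 over those 19502 genes and 8 over the 27025. Sequences for Unc5d, Sema6a, Plxna4, Efnb3, Dcc, Plxna1, Ntn1, Sema3b, Slit1 and Sema3f were not used here.

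Listed Polycomb regions lay at the starts of many guidance genes. Within 2500 bp of a start, 29 of the 57 guidance genes (50.9%) had one of the 2865 Suz12 regions and 40 (70.2%) one of the 6882 H3K27me3 regions, against 9.35% and 17.9% of 19502 genes with a start. The Suz12 group spans every family: Sema3d, Sema5a, Sema5b, Sema6d and Sema7a among the semaphorins, Plxna2, Plxnc1 and Plxnd1 among the plexins, Unc5a, Unc5b and Unc5c, Slit2 and Slit3, Robo2 and Robo3, Ntn3 and Ntn4, 5 ephrins and 7 Eph receptors. All but Ntn3 had the start inside the region, and the region at Efna5 was 4560 bp wide. The H3K27me3 regions at Unc5a (12718 bp) and Robo3 (10051 bp) were the widest over these starts. Guidance genes with a Suz12 region had a median of 25 CG in the promoter and those without one 16.5, beside 24 and 12 for all genes. DiffBind made these lists with its false discovery rate set to 5%, and the headers say neither which groups were compared nor in which direction a region differed. The shares are therefore a description of listed positions, without a test.

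All expression values that follow are those of the authors' deposited tables. They give a log2 fold change (the first group over the second, with its standard error, SE), a p-value adjusted over the genes of the table, and baseMean, the mean normalised read count over the libraries of both groups. Values of single libraries are not used here. A gene was called higher or lower at an adjusted p under 0.05. Over the 13 tables, baseMean summed over genes lay between 26085140 and 31499803, and the median baseMean of the guidance genes between 106 and 974. Suz12 itself, the targeted gene, had log2 fold changes of -1.82 ± 0.22 in ESC KO and -2.14 ± 0.33 in NP KO in the authors' deposited tables. In the rescues it stood at -1.05 ± 0.28 in KO-L, -0.83 ± 0.27 in KO-S, -1.85 ± 0.28 in KO-L3D and -0.06 ± 0.42 in KO-S3D, all against ESC WT; the value of the libraries labelled KO-L3D lies next to that of KO. It stood at 0.02 ± 0.31 in ESC CSex4 and -1.28 ± 0.40 in ESC Deltaex4, and at 0.70 ± 0.30 and -0.61 ± 0.33 in the NP.

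**Figure D1:**
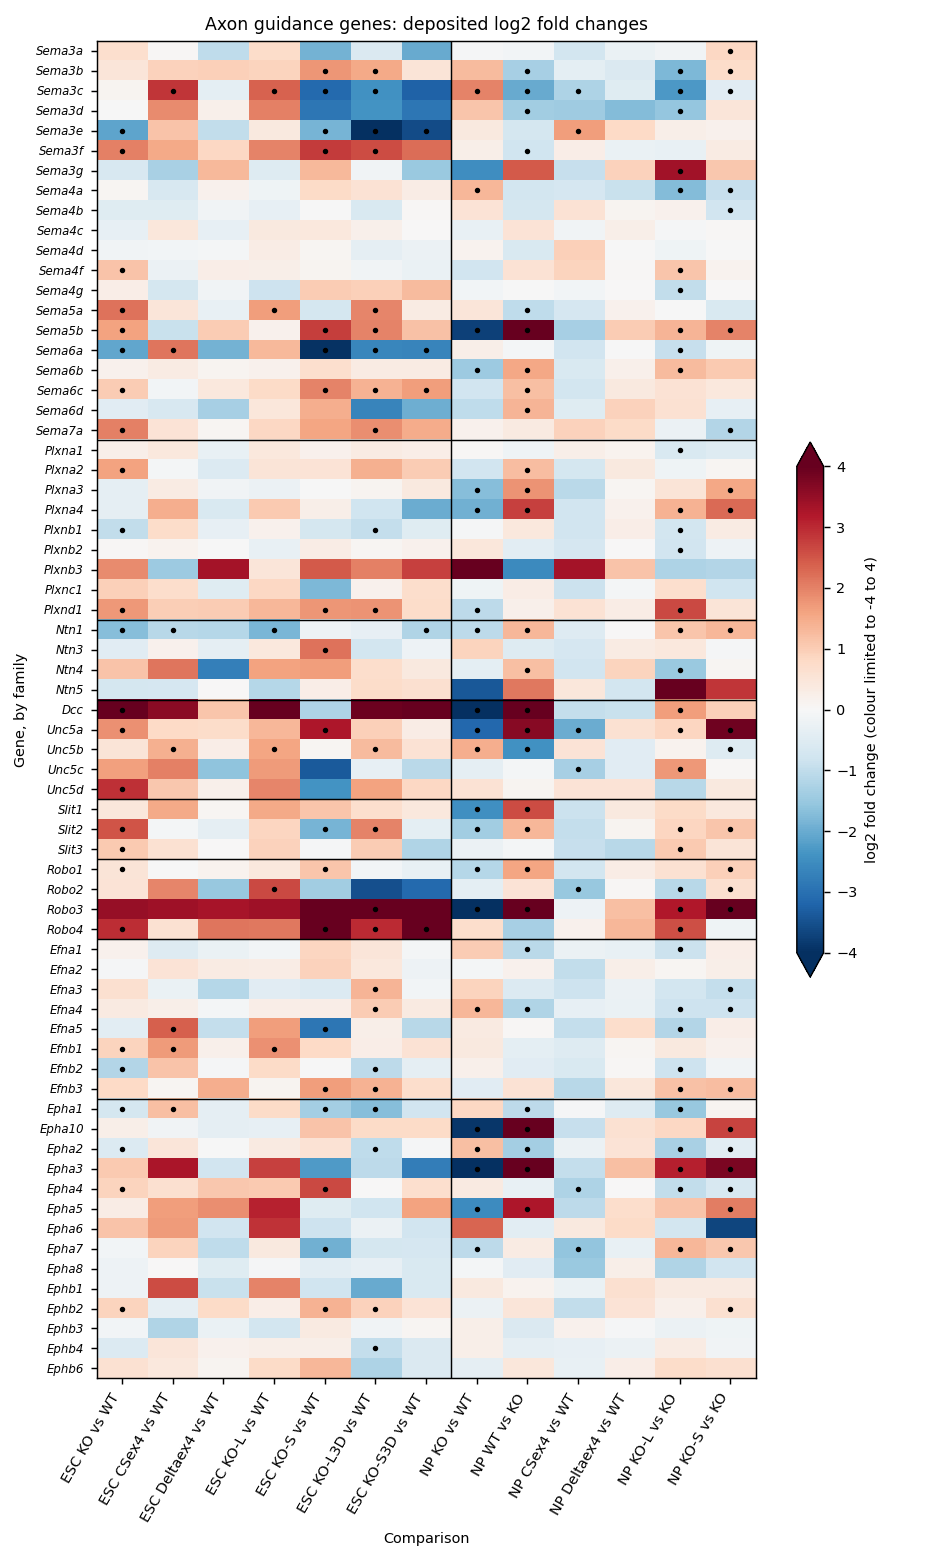
Deposited log2 fold changes of the 67 genes (rows, by family) in the 13 comparisons (columns; ESC left of the line, NP right), with a dot where the adjusted p was under 0.05. Most dots stand in the KO and rescue columns, and the Deltaex4 columns hold none.

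The KO comparison in ESC asks what the loss of Suz12 does to these genes in stem cells. Of 65 guidance genes with an adjusted p, 18 (27.7%) rose, beside 11% of all genes, and 7 (10.8%) fell, beside 7.27%. Their median log2 fold change was 0.35 in the authors' deposited table, against 0.06 over all genes. Among receptors, Dcc, the netrin receptor, rose by 5.82 ± 1.27 (adjusted p = 9.56e-05, DESeq2) at a baseMean of only 18.8 in this deposited table. The repulsive netrin receptors Unc5d (2.92 ± 0.75) and Unc5a (1.83 ± 0.49) rose as well, so that 3 of the 5 netrin receptors rose and none fell. Robo4, the endothelial member of the Slit receptor family, rose by 2.95 ± 0.52, and Robo1, a main axonal Slit receptor, by 0.52 ± 0.20 (authors' deposited table, adjusted p = 0.0479 by DESeq2).

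The repellent ligand Slit2 had the largest rise relative to its error in ESC KO: 2.51 ± 0.27, or 5.71-fold, at a baseMean of 478 (authors' deposited table, adjusted p = 4.47e-18, DESeq2). Its paralog Slit3 rose by 1.05 ± 0.28. Of the 20 semaphorins, 6 rose: Sema5a (2.18 ± 0.30), Sema3f (2.02 ± 0.34), the membrane-anchored Sema7a (2.02 ± 0.36), Sema5b (1.61 ± 0.29), Sema4f (1.15 ± 0.29) and Sema6c (1.03 ± 0.33) in the authors' deposited table. The plexins Plxnd1 (1.73 ± 0.31) and Plxna2 (1.62 ± 0.36) rose as well in the same deposited table. The remaining rises there were those of the Eph receptors Ephb2 (0.90 ± 0.22) and Epha4 (0.88 ± 0.28) and of the ephrin Efnb1 (0.88 ± 0.33). The falls held 2 other semaphorins, Sema3e, a ligand of Plxnd1 (-2.12 ± 0.26), and Sema6a, a transmembrane ligand of A-type plexins (-2.07 ± 0.37). Ntn1, the attractant netrin-1, fell by 1.72 ± 0.27 (3.28-fold) in the authors' deposited table. The other falls were those of the ephrin ligand Efnb2 (-1.16 ± 0.36), Plxnb1 (-0.996 ± 0.211), and the receptors Epha1 (-0.70 ± 0.25) and Epha2 (-0.54 ± 0.19), all in this deposited table. Ephrins and Eph receptors thus moved in both directions, with 1 rise and 1 fall among the 8 ephrins and 2 of each among the 14 receptors.

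The calls in ESC KO were also counted by Suz12 region, as a description. Of 27 tested guidance genes with a Suz12 region near the start, 11 rose and 1 fell, with a median log2 fold change of 0.88 over all 29. Of the 28 without one, 4 rose and 4 fell, with a median of 0.09. Among all genes with such a region the authors' deposited table gave 29.4% higher and 3.75% lower, with a median of 0.78. Among all genes without one it gave 8.13% higher and 7.89% lower. By H3K27me3 region, 14 of 38 tested guidance genes with one rose and 1 fell, beside 23.7% and 3.77% of all such genes. Of the 17 without one, 1 rose and 4 fell, beside 6.8% and 8.46%. Pluripotency markers were kept in these cells: 3 of 6 rose and none fell, at a summed baseMean of 103843. Trophoblast markers (3 of 6 higher, median 2.15) and neural crest markers (3 of 4 higher, median 1.99) moved in the same comparison, and their part in the result was not tested.

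**Figure D2:**
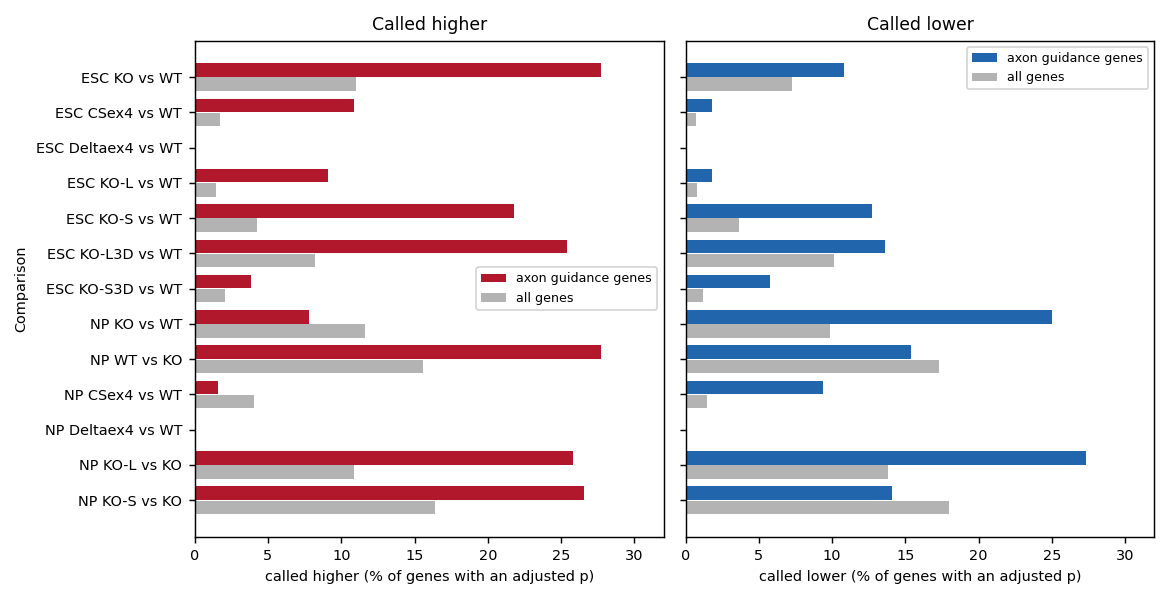
Share of guidance genes (coloured) and of all genes (grey) called higher (left) or lower (right) at an adjusted p under 0.05, in percent of genes with an adjusted p, in each comparison. In ESC KO 27.7% of guidance genes were called higher, and in NP KO 25% were called lower.

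In NP most called guidance genes fell in the same knock-out. Of 64 guidance genes with an adjusted p, 16 (25%) fell, beside 9.85% of all genes, and 5 (7.81%) rose, beside 11.6%. Robo3, the divergent Robo receptor of commissural neurons, fell by 6.43 ± 0.54 on the log2 scale, or 86.5-fold, the largest fall of the set, at a baseMean of 1594 (authors' deposited table, adjusted p = 1.47e-29, DESeq2). Next were Epha3 at -5.33 ± 0.56 (40.3-fold) and Dcc, needed with netrin for midline crossing, at -4.33 ± 0.47 (20.1-fold) in the same deposited table. Unc5a (-3.13 ± 0.42) and Robo1 (-1.13 ± 0.33) fell too. Further A-class Eph receptors, Epha10 (-3.88 ± 0.75) and Epha5 (-2.51 ± 0.69), fell, as did Epha7 (-1.06 ± 0.38), in the authors' deposited table.

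Ligands fell with these receptors: Slit1 (-2.45 ± 0.54), Slit2 (-1.41 ± 0.35), Ntn1 (-1.04 ± 0.36), Sema5b (-3.72 ± 0.45) and Sema6b (-1.47 ± 0.55) in the authors' deposited table. Of the semaphorin receptors, Plxna4 (-1.93 ± 0.59), Plxna3 (-1.70 ± 0.42) and Plxnd1 (-1.04 ± 0.39) fell. The rises in the authors' deposited table were those of the secreted semaphorin Sema3c (1.98 ± 0.34, 3.94-fold), Unc5b, best known from vessels (1.45 ± 0.39), Sema4a (1.34 ± 0.46), and the ephrin Efna4 (1.34 ± 0.36) with the Eph receptor Epha2 (1.21 ± 0.37). A second deposited table, WT vs KO, set the other pair of WT samples against KO. The labels list only 2 NP KO samples, so both tables share them. There 18 of 65 guidance genes (27.7%) were higher in WT, beside 15.6% of all genes, and 10 (15.4%) lower, beside 17.3%. Robo3 was higher in WT by 7.59 ± 0.40, Epha3 by 6.21 ± 0.30, Dcc by 4.86 ± 0.43, Epha10 by 4.52 ± 0.59, Sema5b by 4.33 ± 0.34 and Unc5a by 3.65 ± 0.27 in this deposited table. Sema3c (-2.02 ± 0.27) and Unc5b (-2.43 ± 0.28) were lower in WT.

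Cell type markers moved strongly in the NP KO. Of the neural progenitor markers 5 of 6 were lower in the authors' deposited KO vs WT table (median -5.89, summed baseMean 8192) and 5 of 6 neuron markers (median -3.25, summed baseMean 13411), none at a baseMean of 0. Trophoblast markers were higher in 5 of 6 (median 2.05) and endoderm markers in 3 of 6, with 1 lower. Of the pluripotency markers 2 of 6 were higher in KO and none lower (median -0.18). With the other WT pair, in WT vs KO, 5 of 6 pluripotency markers were lower in WT (median -1.61). The part of all these markers in the falls of Robo3, Dcc and the other neuronal receptors was not tested. Counted by Suz12 region, 1 of 28 tested guidance genes with a region rose and 7 fell (25%), and of the 26 without one 4 rose and 5 fell (19.2%). Of all genes with a Suz12 region 20.1% rose and 15.8% fell, and of those without one 10.1% and 8.77%. By H3K27me3 region, 2 of 39 tested guidance genes with one rose and 11 fell, beside 18.3% and 14.2% of all such genes. Of the 15 tested without one, 3 rose and 1 fell, beside 9.23% and 8.25%. With the Wald statistics divided by the robust SD of all genes, the 21 called genes (5 higher, 16 lower) became 5, all lower, beside 2.37% of all genes. In ESC KO the 25 (18 higher, 7 lower) became 4, of which 2 were higher and 2 lower, beside 1.6% of all genes.

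The effect of the knock-out itself was then compared between the cell types, which share no library. The difference of the log2 fold changes (NP minus ESC) was tested by a Wald test over all genes with a baseMean of at least 10 in both, with Benjamini-Hochberg adjustment. It passed for 22 of 60 guidance genes (36.7%), beside 14.3% of all genes, and 16 of the 22 were lower in NP. Dcc differed by -10.15 ± 1.35 (SE), Sema5b by -5.34 ± 0.53, Unc5a by -4.96 ± 0.65, Slit2 by -3.92 ± 0.44 and Plxnd1 by -2.77 ± 0.50. For each of these the authors' deposited tables called the gene higher in ESC KO and lower in NP KO. Robo1 did so too, with a smaller difference of -1.66 ± 0.39. Epha10 (-4.12 ± 1.01), Slit1 (-2.90 ± 0.85) and Plxna3 (-1.35 ± 0.49) fell in NP alone, and the difference passed for each. Opposite in sign were Sema3e (2.50 ± 0.47) and Sema6a (2.29 ± 0.52), which fell in ESC KO and stood at 0.39 ± 0.40 and 0.23 ± 0.36 in NP KO in the authors' deposited tables. Sema3c (1.88 ± 0.61) and Epha2 (1.75 ± 0.41) were among the 6 whose effect was higher in NP. Robo3 and Epha3 had baseMeans of 6.29 and 4.33 in the deposited ESC KO table and were not compared.

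**Figure D3:**
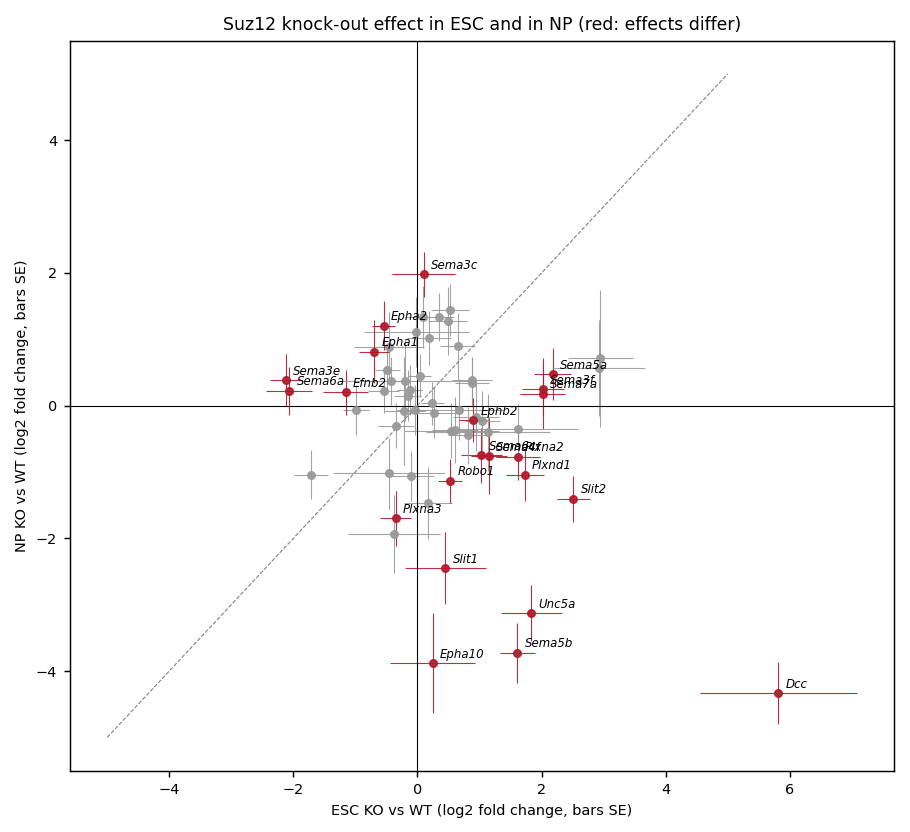
Log2 fold change of each gene in NP KO vs WT (vertical) against ESC KO vs WT (horizontal), with SE bars, for the 60 genes compared; red marks the 22 whose effects differed, and the dashed line marks equal effects. Dcc, Sema5b, Unc5a and Slit2 lie in the lower right, higher in ESC KO and lower in NP KO.

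In ESC with constitutive inclusion of exon 4, a small group of guidance genes was higher than in WT. Of 55 with an adjusted p, 6 (10.9%) rose, beside 1.72% of all genes, and 1 fell, beside 0.695%. Sema3c rose by 2.87 ± 0.63 (7.34-fold, adjusted p = 0.00102, DESeq2), the ephrin Efna5 by 2.40 ± 0.52 and Sema6a by 2.15 ± 0.47 in the authors' deposited table. Efnb1, a B-class ephrin, rose by 1.69 ± 0.49, Unc5b by 1.42 ± 0.37 and Epha1 by 1.20 ± 0.35, while Ntn1 fell by 1.12 ± 0.33 in that table. The median over the 67 genes was 0.50 against 0.01 over all genes. Of the pluripotency markers 3 of 6 were lower in the same deposited table (median -1.10), and 4 of 6 trophoblast markers (median 2.45) and 3 of 6 fibroblast and mesenchyme markers (median 2.02) higher. Their part in the rises was not tested.

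In CSex4 NP the calls were mostly falls: 6 of 64 guidance genes (9.38%) fell, beside 1.45% of all genes, and 1 rose, beside 4.08%; the median was -0.69 against 0.02. Unc5a fell by 1.99 ± 0.39 (3.98-fold, adjusted p = 2.85e-05, DESeq2), as did Epha7 (-1.56 ± 0.36), the Slit receptor Robo2 (-1.51 ± 0.42), the netrin receptor Unc5c (-1.34 ± 0.35), Epha4 (-1.24 ± 0.34) and Sema3c (-1.24 ± 0.35), in the authors' deposited table. Sema3e was the only rise, by 1.67 ± 0.33. Of the pluripotency markers 5 of 6 were higher here (median 2.39) and 3 of 6 neural progenitor markers lower (median -1.13). Endothelium markers were higher in 3 of 4 (median 1.74), and the part of these lists in the falls was not tested. The effect of CSex4 differed between NP and ESC for 8 of 60 guidance genes, beside 4.97% of all genes, and all 8 were lower in NP. They were Sema3c (-4.11 ± 0.72), Robo2 (-3.45 ± 0.98), Efna5 (-3.37 ± 0.63), Sema6a (-2.92 ± 0.59), Epha7 (-2.44 ± 0.62), Efnb1 (-2.20 ± 0.58), Epha4 (-1.89 ± 0.59) and Efnb2 (-1.76 ± 0.51).

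Deletion of exon 4 gave no called guidance gene in either cell type. In ESC 0 of 67 passed, as did 0% of all genes higher and 0% lower, and 5 had an unadjusted p under 0.05 in the authors' deposited DESeq2 table, where 0.666% of all 20263 genes with a p did. These 5 were Ntn1 (-1.15 ± 0.43), Efna3 (-1.15 ± 0.57), Robo4 (2.15 ± 0.98), Efnb3 (1.44 ± 0.55) and Epha4 (1.06 ± 0.48), chosen after their values were seen. In NP 0 of 65 passed, beside 0.0289% of all genes higher and 0.052% lower, and 5 again had an unadjusted p under 0.05 (DESeq2), beside 1.9% of all 20917 genes with a p. They were Epha3 (1.22 ± 0.53), Sema5b (1.00 ± 0.46), Efna5 (0.69 ± 0.34), Sema3d (-1.73 ± 0.71) and Slit3 (-1.12 ± 0.53) in the authors' deposited table, also chosen after their values were seen. The statistics of these 2 tables are narrow, and once divided by their robust SD, 4 of 67 guidance genes passed in ESC (3 higher, 1 lower), beside 0.523% of all genes, and 6 of 67 in NP (4 higher, 2 lower), beside 2.43%. The difference between the effects in NP and ESC passed for 0 of 57 (1 gene in all, 0.0071%).

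The 2 exon 4 genotypes were compared through their effects against WT. In ESC 0 of 57 guidance genes differed (0.0766% of all genes), and in NP 3 of 64 did, beside 1.78%. Unc5a was higher in Deltaex4 than in CSex4 NP by 2.60 ± 0.51, Sema5b by 2.34 ± 0.64 and Efna5 by 1.66 ± 0.49. The summed SE is too wide where controls are shared. With the variance of the difference reduced as for equal errors and fully shared controls, 4 guidance genes differed in ESC, beside 3.2% of all genes, and 18 in NP, beside 10.5%. In ESC there were 3 WT samples and 2 per line compared, so errors need not be equal. There the reduction may be too strong, and counts made this way too high, also for the rescues below. The labels do not name the WT libraries of the 2 NP tables, so that sharing is assumed there.

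**Figure D4:**
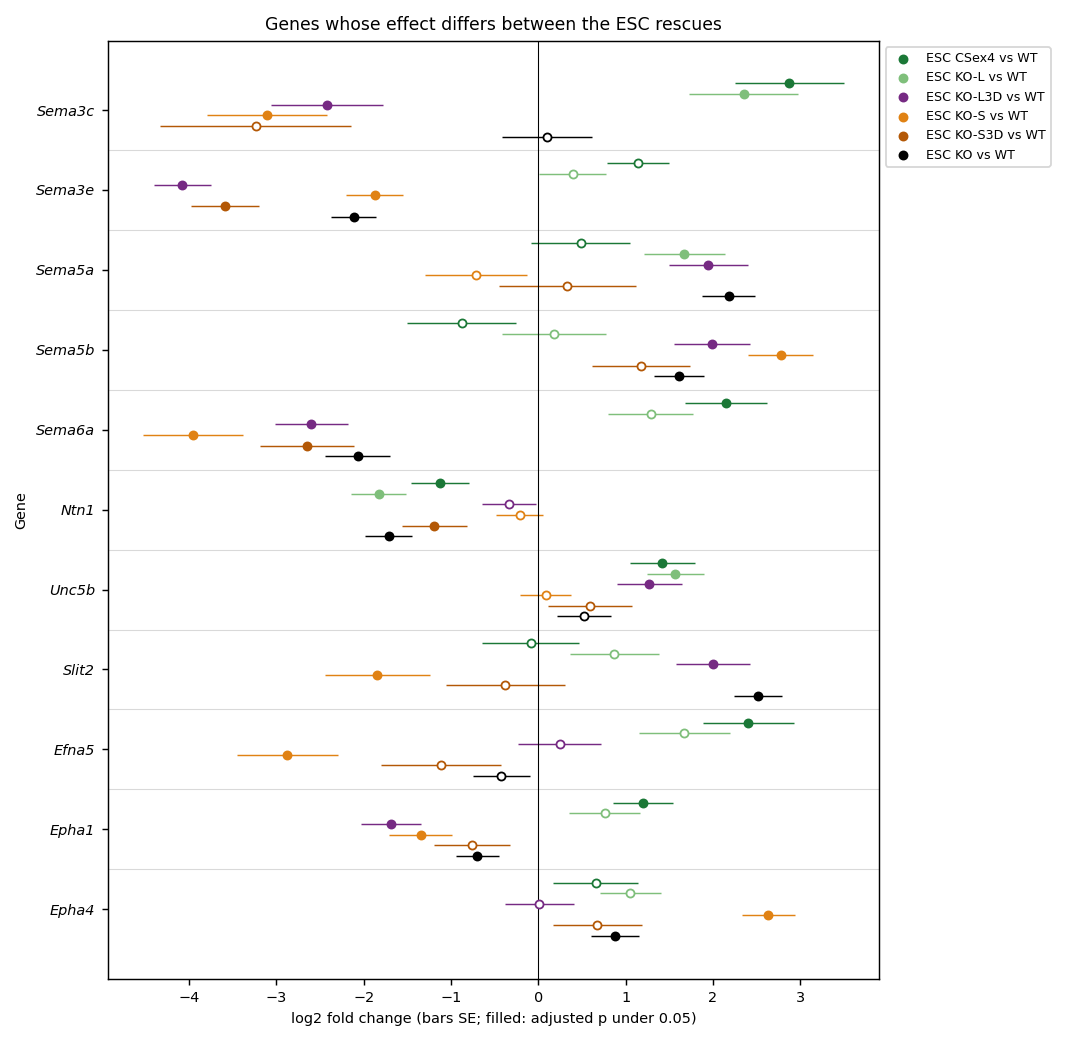
Deposited log2 fold changes against WT (bars SE; filled points, adjusted p under 0.05) in 6 ESC lines, for the 11 genes whose effect differed between KO-S and KO-L. For Sema3c, Sema6a and Efna5, CSex4 and KO-L lie right of 0 and KO-S left of it.

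The long-isoform rescue in ESC showed few changes against WT. Of 55 guidance genes 5 (9.09%) rose, beside 1.46% of all genes, and 1 fell, beside 0.771%. Robo2 rose by 2.65 ± 0.78, Sema3c by 2.35 ± 0.62, Efnb1 by 1.83 ± 0.43, Sema5a by 1.67 ± 0.47 and Unc5b by 1.57 ± 0.33, and Ntn1 fell by 1.83 ± 0.31 in the authors' deposited table. Trophoblast markers (4 of 6) and fibroblast and mesenchyme markers (3 of 6) were higher here also, and their part was not tested.

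In the short-isoform rescue more of these genes were called, in both directions. Of 55 guidance genes 12 (21.8%) rose, beside 4.28% of all genes, and 7 (12.7%) fell, beside 3.63%. Robo4 rose by 4.37 ± 0.59 (20.7-fold, adjusted p = 4.94e-11, DESeq2), Unc5a by 3.22 ± 0.66, Sema3f by 2.78 ± 0.51, Sema5b by 2.78 ± 0.37 and Epha4, a receptor for both ephrin classes, by 2.63 ± 0.30 in the authors' deposited table. Ntn3 (2.18 ± 0.54), Sema6c (1.98 ± 0.35), Sema3b (1.78 ± 0.46), Plxnd1 (1.75 ± 0.55), Efnb3 (1.68 ± 0.41), Ephb2 (1.38 ± 0.31) and Robo1 (1.12 ± 0.33) made up the other rises in that table. Sema6a fell by 3.96 ± 0.57 (15.5-fold), as did Sema3c (-3.11 ± 0.69), Efna5 (-2.88 ± 0.58), Epha7 (-1.94 ± 0.62), Sema3e (-1.87 ± 0.33), Slit2 (-1.85 ± 0.60) and Epha1 (-1.35 ± 0.36), in the authors' deposited table. Of the pluripotency markers 2 of 6 were higher (median 0.16). Endoderm markers had a median of 3.02, with no call. Fibroblast and mesenchyme markers had no call either, with a median of -0.37 against 2.60 in KO-L. The part of these lists in the changes, and in the differences from KO-L, was not tested.

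Between the rescues, the effect in KO-S differed from that in KO-L for 11 of 56 guidance genes (19.6%), beside 3.94% of all genes. It was lower in KO-S for 8: Sema3c (-5.46 ± 0.93), Sema6a (-5.24 ± 0.75), Efna5 (-4.55 ± 0.78), Slit2 (-2.72 ± 0.79), Sema5a (-2.38 ± 0.75), Sema3e (-2.27 ± 0.51), Epha1 (-2.11 ± 0.54) and Unc5b (-1.48 ± 0.44). It was higher for Sema5b (2.60 ± 0.70), Ntn1 (1.61 ± 0.41) and Epha4 (1.58 ± 0.46). Both effects are against WT ESC, and with the shared controls taken out in the same way 20 guidance genes differed, 9 higher and 11 lower in KO-S, beside 14.7% of all genes. In the authors' deposited tables Slit2 rose in KO (2.51 ± 0.27), stood at 0.87 ± 0.51 in KO-L without a call and fell in KO-S. The KO effect was not tested against that of either rescue. The fall in KO-S did not pass after centring on genes with a baseMean of at least 100.

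The long-isoform rescue with the 3D mutation had more calls. In KO-L3D 15 of 59 guidance genes (25.4%) rose, beside 8.22% of all genes, and 8 (13.6%) fell, beside 10.1%. Robo3 rose by 5.28 ± 1.65 at a baseMean of 18.6, Robo4 by 2.98 ± 0.82, Sema3f by 2.60 ± 0.58, Slit2 by 1.996 ± 0.424, Sema5b by 1.99 ± 0.43, Sema5a by 1.95 ± 0.45, Sema7a by 1.86 ± 0.54 and Plxnd1 by 1.79 ± 0.56 in the authors' deposited table. Sema3e fell by 4.08 ± 0.33 (16.9-fold, adjusted p = 1.41e-31, DESeq2), as did Sema6a (-2.60 ± 0.42), Sema3c (-2.42 ± 0.64) and Epha1 (-1.69 ± 0.35), in that table. Among the smaller falls there were Efnb2 (-1.05 ± 0.36), Epha2 (-1.02 ± 0.28) and Ephb4 (-0.94 ± 0.33). Against KO-L the effect differed for 8 of 57 genes, beside 4.88% of all genes. Robo2 (-6.18 ± 1.91), Sema3c (-4.77 ± 0.90), Sema3e (-4.47 ± 0.51), Sema6a (-3.88 ± 0.64), Epha1 (-2.45 ± 0.53), Efnb2 (-1.82 ± 0.50) and Epha2 (-1.39 ± 0.41) were lower in KO-L3D, and Ntn1 was higher (1.49 ± 0.44). With the shared controls taken out, 20 differed, 5 higher and 15 lower, beside 20.4% of all genes. Suz12 RNA was also low in this pair (-1.85 ± 0.28). Trophoblast markers were higher in 5 of 6 (median 3.93), neural crest markers in 3 of 4 (median 2.97) and pluripotency markers in 3 of 6 (median 0.66). Fibroblast and mesenchyme markers were lower in 2 of 6 (median -1.47), as were 2 of 6 neuron markers, with 1 higher. The part of any of these in the result was not tested. With the statistics divided by their robust SD, the 23 calls (15 higher, 8 lower) became 1, a fall, beside 0.57% of all genes.

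The mutated short isoform gave fewer calls: 2 of 52 guidance genes (3.85%) rose, beside 2.05% of all genes, and 3 (5.77%) fell, beside 1.18%. Robo4 rose by 4.08 ± 0.73 and Sema6c by 1.66 ± 0.48, and Sema3e (-3.59 ± 0.39), Sema6a (-2.65 ± 0.53) and Ntn1 (-1.19 ± 0.37) fell, in the authors' deposited table. Sema3c had a log2 fold change of -3.24 ± 1.10 and did not pass (adjusted p = 0.0762, DESeq2). Between KO-S3D and KO-S 0 of 55 genes differed, beside 0.732% of all genes (5 with the shared controls taken out, beside 4.66%). For Unc5a the values in the authors' deposited tables were 0.28 ± 1.30 with and 3.22 ± 0.66 without the mutation, with errors too large to tell them apart by this test. In KO-S3D 2 of 6 fibroblast and mesenchyme markers were lower (median -2.10). Higher were 1 of 6 trophoblast (median 2.05), 1 of 6 pluripotency (median 0.30) and 1 of 4 neural crest markers (median 1.81). Their part in the result was not tested.

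Rescue in NP was measured against the KO itself, so that a positive value is a gain over the knock-out. In KO-L 17 of 66 guidance genes (25.8%) rose, beside 10.9% of all genes, and 18 (27.3%) fell, beside 13.8%. In KO-S 17 of 64 (26.6%) rose, beside 16.4%, and 9 (14.1%) fell, beside 18%. Robo3 rose by 3.22 ± 0.55 with the long isoform and by 4.09 ± 0.44 with the short one in the authors' deposited tables, next to the 7.59 ± 0.40 by which WT exceeded KO. Epha3 rose by 3.12 ± 0.36 and 3.78 ± 0.30, Sema5b by 1.37 ± 0.40 and 1.97 ± 0.34, and Slit2 by 0.87 ± 0.27 and 1.10 ± 0.21 in the same deposited tables. These comparisons share the KO libraries, so their values are set side by side only.

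The largest difference between the isoforms was at Unc5a. It rose by 3.89 ± 0.18 (14.8-fold, adjusted p = 2.43e-102, DESeq2) in KO-S and by 0.84 ± 0.29 in KO-L in the authors' deposited tables, a difference of 3.04 ± 0.34. Unc5c rose in KO-L (1.74 ± 0.23) and stood at 0.04 in KO-S, and Plxnd1 rose in KO-L (2.64 ± 0.25) and stood at 0.50 in KO-S; their differences were -1.70 ± 0.32 and -2.14 ± 0.37. Dcc rose by 1.69 ± 0.50 in KO-L and had 0.94 ± 0.54 in KO-S in these tables, a difference that did not pass the test. In KO-L alone the deposited table called Sema3g (3.37 ± 0.95, baseMean 32.5) and Robo4 (2.58 ± 0.61) higher, and in KO-S alone Epha10 (2.69 ± 0.78), Epha5 (2.06 ± 0.67), Plxna3 (1.55 ± 0.23) and Robo1 (0.96 ± 0.19). Of these, the difference between the isoforms passed for Plxna3 alone (1.02 ± 0.36), and Sema3g was not among the genes compared.

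Sema3c and Epha2, both higher in KO than in WT, fell in each rescue. So did Sema4a and Efna4, also higher in KO than in WT, with Efna4 at -0.84 ± 0.26 in KO-L. The rescues were set against the same KO libraries, so a fall of genes picked as high in KO was favoured in advance. For Sema3c the authors' deposited tables gave -2.28 ± 0.21 with the long and -0.46 ± 0.16 with the short isoform, and the difference passed (1.82 ± 0.26). For Epha2 they gave -1.29 ± 0.20 and -0.41 ± 0.17, with a difference of 0.87 ± 0.26. In KO-L the falls also took in Sema3b (-1.79 ± 0.41), Sema4a (-1.75 ± 0.38), Sema3d (-1.54 ± 0.32), Epha1 (-1.51 ± 0.33), Ntn4 (-1.49 ± 0.45), Efna5 (-1.17 ± 0.24), Robo2 (-1.12 ± 0.27), Sema4g (-0.99 ± 0.24), Epha4 (-0.98 ± 0.23) and Sema6a (-0.92 ± 0.25). Sema3b and Robo2 went the other way in KO-S, where they were called higher (0.73 ± 0.29 and 0.64 ± 0.21). In KO-S the other falls included Sema7a (-1.17 ± 0.48), Efna3 (-0.94 ± 0.29), Sema4a (-0.94 ± 0.34), Efna4 (-0.82 ± 0.21), Sema4b (-0.78 ± 0.20), Epha4 (-0.64 ± 0.19) and Unc5b (-0.51 ± 0.18) in the authors' deposited table. Over all guidance genes the effects of the 2 isoforms differed for 15 of 63 (23.8%), beside 10.3% of all genes, 12 higher and 3 lower in KO-S. With the shared KO part taken out 25 differed, beside 23.9% of all genes. Neural progenitor markers were higher in 6 of 6 with KO-S and in 4 of 6 with KO-L, where 1 was lower (medians 5.05 and 3.75). Neuron markers were higher in 6 and 5 of 6 (2.39 and 2.11). Fibroblast and mesenchyme markers were higher in 4 of 6 in KO-L (1 lower, median 1.36) and in 2 of 6 in KO-S (1 lower, median 0.09). Endothelium markers were higher in 3 of 4 in KO-L (2.74), whereas 2 of 4 were lower in KO-S. Pluripotency markers were higher in 4 of 6 in KO-L (1 lower, median 1.78) and lower in 3 of 6 in KO-S (median -0.83). Trophoblast markers were lower in 4 of 6 in KO-L and 5 of 6 in KO-S (medians -2.35 and -0.94), and endoderm markers in 4 of 6 in both (-1.75 and -0.85). The part of all these in the results was not tested.

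**Figure D5:**
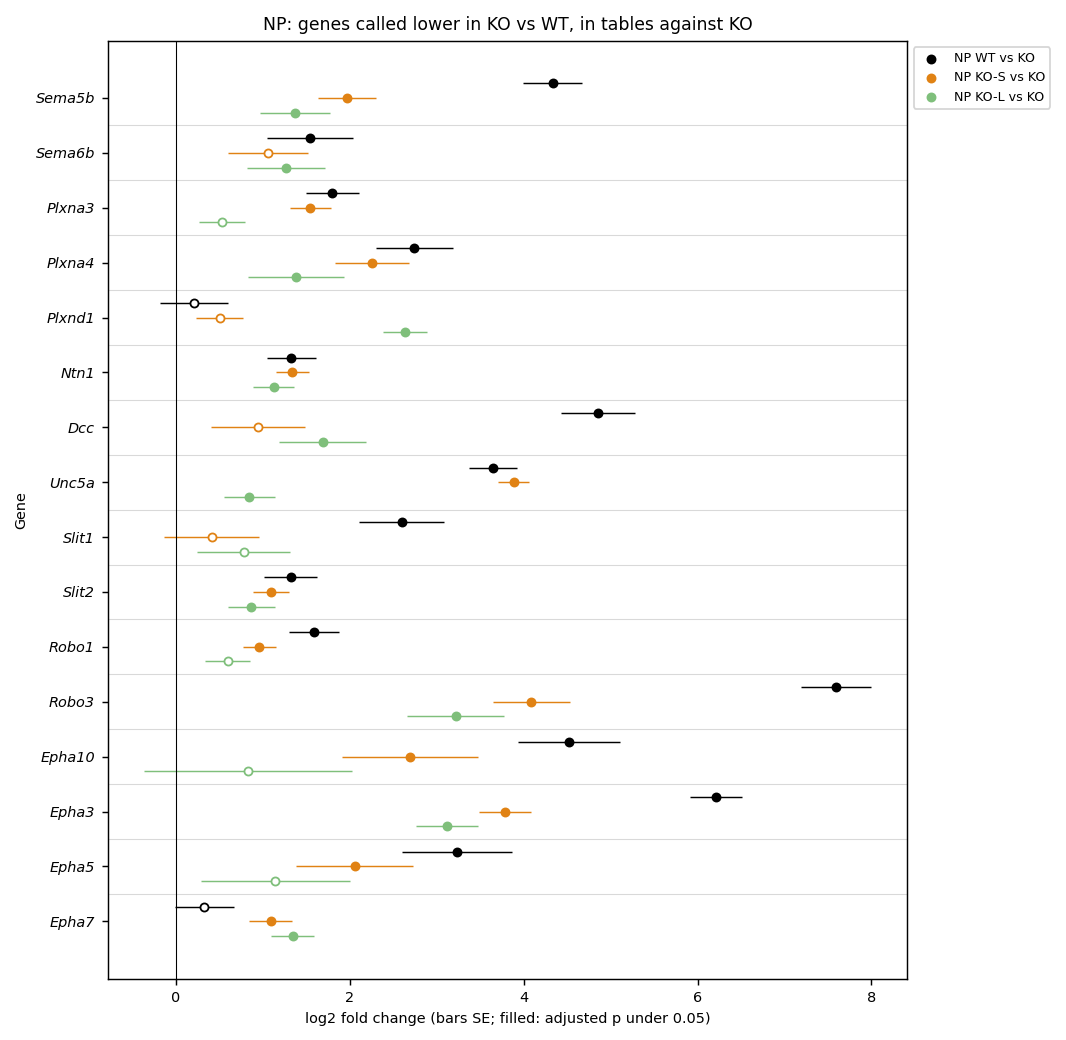
Deposited log2 fold changes over KO (bars SE; filled points, adjusted p under 0.05) of WT, KO-S and KO-L NP, for the 16 genes called lower in NP KO vs WT. Robo3 spans 3.22 to 7.59, and KO-S lies right of KO-L for Unc5a and left of it for Plxnd1.

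Across the 13 comparisons 56 of the 67 guidance genes (83.6%) were called at least once, beside 50.4% of the 20563 genes with an adjusted p in any. In ESC 37 were called at least once (55.2%, beside 25.6%) and in NP 52 of 66 (78.8%, beside 48%). The 11 called in none were Sema4c, Sema4d, Plxnb3, Plxnc1, Ntn5, Efna2, Epha6, Epha8, Ephb1, Ephb3 and Ephb6. Sema3c was called in 9 comparisons, Ntn1 in 8, and Sema5b, Unc5a and Slit2 in 7 each. The comparisons share controls, so these counts are not independent. Of the 202 calls, 50 passed after each statistic was divided by the robust SD of its table. Each of Sema3c, Sema6a, Efna5, Slit2 and Epha1 was called higher in one ESC line and lower in another. For Epha1 the authors' deposited tables gave 1.20 ± 0.35 in CSex4, -1.35 ± 0.36 in KO-S and -1.69 ± 0.35 in KO-L3D. Of the ephrin receptors of class B, which have 5 members here, Ephb2 was called most often and Ephb4 once, in KO-L3D.

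Other genes of the pathway, 49 co-receptors, adhesion molecules and intracellular effectors listed for their role, are counted in the same way. In NP KO 18 of 49 fell, beside 9.85% of all genes, and 2 rose, beside 11.6%. The axonal adhesion molecule Cntn2 (-4.71 ± 0.42), the Sonic hedgehog co-receptor Boc (-3.76 ± 0.43) and the repellent Draxin (-3.39 ± 0.50) fell most, while the actin regulator Mical2 rose by 1.90 ± 0.37 and the adhesion protein Flrt3 by 1.30 ± 0.36 in the authors' deposited table. Against KO, 15 rose and 4 fell with KO-L, beside 10.9% and 13.8% of all genes, and 22 rose and 5 fell with KO-S, beside 16.4% and 18%. Cntn2 rose by 3.03 ± 0.36 and 3.90 ± 0.78, and Draxin by 2.49 ± 0.37 and 2.99 ± 0.32 in the authors' deposited tables. In NP WT vs KO 27 were higher and 8 lower, beside 15.6% and 17.3%. In ESC KO 10 rose and 3 fell, beside 11% and 7.27%. The ESC KO calls had Flrt2 (2.56 ± 0.44), Flrt1 (2.47 ± 0.62) and Ngef, an exchange factor downstream of Epha4 (2.27 ± 0.55), as the largest rises and Crmp1, a mediator of semaphorin signals (-1.78 ± 0.31), as the largest fall in the deposited table. KO-S had 6 higher and 3 lower of 47, beside 4.28% and 3.63% of all genes, with the semaphorin co-receptor Nrp2 at -2.92 ± 0.31 in the authors' deposited table, KO-L3D 5 and 3 of 48, beside 8.22% and 10.1%, with Crmp1 at -3.97 ± 0.38, and KO-S3D 0 and 2 of 45, beside 2.05% and 1.18%. In ESC CSex4, Gap43, a growth cone protein (2.30 ± 0.56), and Mical2 (2.06 ± 0.59) rose, 2 of 46 beside 1.72% of all genes. In KO-L only Gap43 (1.71 ± 0.50) rose, 1 of 47 beside 1.46%. In NP CSex4 4 of 49 fell, beside 1.45%, Draxin most (-1.58 ± 0.43). Deltaex4 had none in either cell type.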

How the data were processed

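RNA-seq of 32 samples (18 ESC, 14 NP) enters as 13 tables of the authors' comparisons, and ChIP-seq (55 samples) as 2 lists of regions. Per the submitters' processing notes, Bowtie, TopHat, DESeq2 and DiffBind were used with mm10 and dm3; their roles and versions are not given in the sources used here. The deposited baseMean is a signal, normalised reads averaged over a comparison's libraries. The authors' fold changes and SE are on the log2 scale. The deposited test statistic, a score, equals the log2 fold change over its SE, and the deposited p-value, raw and adjusted, follows from it. The names of all 13 tables hold the word paired. What it refers to is not given in the sources used here. Per the file headers, the region lists come from DiffBind at a 5% false discovery rate; their build is not given there and was read as mm10.

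Samples were grouped by title, and the 67 genes by symbol. Genes were called at an adjusted p under 0.05 as deposited. Genes named are called ones with a baseMean of at least 10, up to 12 per direction; for differences up to 10, and for other pathway genes up to 3. A gene named in one comparison may be given in any other, and every difference between the cell types that passed is listed in the closing section. Differences of effects were tested by a two-sided Wald test (SE: root of summed squares), with Benjamini-Hochberg adjustment over genes with a baseMean of at least 10 in both, 9 differences in all. Gene starts and promoters came from RefSeq (GRCm38.p6); a region counted as near within 2500 bp. Alternatives covered the threshold, baseMean minimum, adjustment, centring, robust scaling, effect size, other WT pair and shared controls. Python 3.11.15, pandas 2.3.3, numpy 2.4.6, scipy 1.17.1 and matplotlib 3.10.9 were used. The genes and lists were chosen with earlier results of these data known. Depth of single libraries was not used here.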

Additional observations from a re-analysis of the deposited data

Results flagged for a closer look

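For 30 results the test of the difference between cell types itself passed (Wald test with Benjamini-Hochberg adjustment), and each is given as the NP minus the ESC effect on the log2 scale. For the knock-out the effect was lower in NP for Dcc (-10.15), Sema5b (-5.34), Unc5a (-4.96), Epha10 (-4.12), Slit2 (-3.92), Slit1 (-2.90), Plxnd1 (-2.77), Plxna2 (-2.39), Sema4f (-1.91), Sema7a (-1.84), Sema6c (-1.78), Sema3f (-1.77), Sema5a (-1.70), Robo1 (-1.66), Plxna3 (-1.35) and Ephb2 (-1.12). It was higher in NP for Sema3e (2.50), Sema6a (2.29), Sema3c (1.88), Epha2 (1.75), Epha1 (1.51) and Efnb2 (1.36). The Dcc value rests on a baseMean of 18.8 in ESC, with a 95% interval from -12.80 to -7.50.

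For constitutive exon 4 the effect was lower in NP for Sema3c (-4.11), Robo2 (-3.45), Efna5 (-3.37), Sema6a (-2.92), Epha7 (-2.44), Efnb1 (-2.20), Epha4 (-1.89) and Efnb2 (-1.76).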

How the results depend on the processing

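Of the alternatives run for single genes only centring alters a log2 fold change, and no called gene changed sign under it. The others could not change a sign, and the other WT pair was run for counts only. The balance of higher and lower calls did change. Of 202 calls of single genes, 190 were kept with the adjustment over all genes with a p, 188 after centring on genes with a baseMean of at least 100, 148 at an adjusted p under 0.01 and 50 after division by the robust SD. Division by the robust SD changed the counts of called genes, out of 67, given here with the share of all genes. In ESC they became 4 in KO (beside 1.6%), 3 in CSex4 (0.748%), 4 in Deltaex4 (0.523%), 9 in KO-S (1.45%), 1 in KO-L3D (0.57%) and 3 in KO-S3D (0.48%). In NP they became 5 in KO (beside 2.37%), 8 in WT vs KO (3.14%), 4 in CSex4 (2.22%), 6 in Deltaex4 (2.43%), 3 in KO-S (2.94%) and 5 in KO-L (4.65%). Under this division the split of higher and lower calls went from 18 and 7 to 2 and 2 in ESC KO, from 15 and 8 to 0 and 1 in KO-L3D, from 6 and 1 to 3 and 0 in ESC CSex4, and in NP from 5 and 16 to 0 and 5 in KO, 18 and 10 to 6 and 2 in WT vs KO, 1 and 6 to 1 and 3 in CSex4, 17 and 18 to 3 and 2 in KO-L and 17 and 9 to 3 and 0 in KO-S. Centring left ESC CSex4 at 6 and 0. After division by the robust SD, the differences between cell types numbered 6 for KO (beside 2.49% of all genes), 3 for CSex4 (1.78%) and 5 for Deltaex4 (3.13%). The same division gave 3 for KO-L3D minus KO-L (beside 0.721%), 2 for KO-S3D minus KO-S (1.61%) and 6 for KO-S minus KO-L (1.95%). It gave 2 for ESC Deltaex4 minus CSex4 (beside 0.682%) and 8 for NP KO-S minus KO-L (3.55%). An adjusted p under 0.01 left 3 in ESC CSex4, 3 in KO-L, 12 in KO-L3D and 3 in KO-S3D, and a log2 change of at least 1 left 13 in NP KO-S (12 higher, 1 lower) and turned NP KO-L from 17 and 18 to 15 and 9. Taking out the shared controls, an alternative chosen after seeing the data, gave 20 for KO-L3D minus KO-L, 5 for KO-S3D minus KO-S, 20 for KO-S minus KO-L, 4 and 18 for Deltaex4 minus CSex4 in ESC and NP, and 25 for NP KO-S minus KO-L. Beyond the stricter thresholds, the cause was not tested. The other WT pair gave 28 called genes in NP against 21. No paired analysis was possible because the tables hold no values of single samples (their names hold the word paired without saying what it refers to). For the same lack of single-sample values, leaving out a replicate was not run.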
